A study of Danio rerio with 2 samples.

Results

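The subunits of mitochondrial oxidative phosphorylation were examined in gnl2 mutant zebrafish embryos as 19 genes measured by 31 probes. They were drawn from an array with 21495 gene probes, which stand for 17985 genes or unnamed transcripts. Members were all gene probes whose array name, or whose symbol in the probe description, begins with nduf, sdha, sdhb, sdhc, sdhd, uqcr, cox4, cox5, cox6, cox7, cox8 or atp5, or is cyc1. The rule reads names only. By symbol, 8 of the 19 genes belong to complex I, 1 to complex II, 2 to complex III, 3 to complex IV and 5 to complex V. All 31 probes were well above background in both genotypes on both arrays, and 0 of them were saturated, so that every member passed the filter on dim probes.

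Oxidative phosphorylation takes place in the inner mitochondrial membrane. Complexes I and II take electrons from NADH and succinate, complex III passes them to cytochrome c and complex IV passes them to oxygen, and the protons pumped on the way drive ATP synthesis by complex V. Most subunits are encoded in the nucleus, translated in the cytosol and imported, whereas a small number are encoded in mitochondrial DNA. The nuclear subunits are made in nearly all cell types and are abundant in muscle and in other tissues with a high demand for ATP.

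The study compared whole embryos homozygous for the gnl2 allele bw41c, obtained by crossing heterozygous carriers, with wild-type TL embryos, all at 22 hours post-fertilization (hpf). gnl2 encodes a nucleolar GTPase that is known, from yeast and other species, for its role in assembly of the large ribosomal subunit. Each extract was made from 40 pooled embryos, and RNA of both genotypes competed on each of 2 Agilent arrays read in 2 colours, with the dyes exchanged between arrays. The labels do not say whether the wild-type embryos were siblings of the mutants. On array 1 the mutant RNA carried Cy5 (red) and on array 2 it carried Cy3 (green), so each array gives 1 ratio of mutant over wild type and n is 2 throughout.

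The series' text calls the arrays biological replicates, while both titles bear the same replicate number. Array, extract and dye orientation cannot be told apart, and if the extracts were shared, the p-values below measure technical spread. All ratios are log2 of mutant over wild type, turned to that direction on array 2. Their Pearson correlation between the arrays over the 19284 probes tested was -0.15, a weak relation in the opposite direction. In limma, 0 of 19284 probes passed an adjusted p of 0.05, and 632 had an unadjusted p under 0.05. The scanner software's error model called 133 probes in the same direction on both arrays. Its threshold was 0.01 on the p-values of single arrays, unlike the adjusted p used in limma. For gnl2 itself the ratios were -0.99 and -2.27, and their mean was -1.63 ± 0.91 (SD, n = 2; unadjusted p = 0.0138 and adjusted p = 1.00 in limma). The position of that probe relative to the lesion was not known, so it does not check the genotype label.

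No oxidative phosphorylation gene could be called different between mutant and wild type from these 2 arrays. In limma, 0 of the 19 genes passed an adjusted p of 0.05, against 0% of all probes, and the smallest unadjusted p among them was 0.0686, for cox7a2l. None reached 1.5-fold in the same direction on both arrays. Of all 16222 genes, 40 were that much higher and 7 that much lower. The error model called 0 of the members, beside 133 probes over the whole array. Calls of either kind were rare among all genes, so neither count of 0 sets the members apart. The genes' mean log2 ratios ran from -0.14 to 0.24, with 14 of 19 above 0, beside 51.3% of all genes. Their median was 0.10, beside a median of 0.00 over all 16222 genes tested. On array 1 the members' median was 0.20 and on array 2 it was -0.05. The direction of the median therefore differed between the arrays.

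Gene by gene, 7 of the 19 members were higher in the mutant on both arrays, which is 36.8% of them, beside a background of 21.3% of all genes. Another 2 members, 10.5%, were lower on both arrays, beside 20.2% of all genes. The remaining 10, 52.6%, were higher on array 1 and lower on array 2, beside 32.2% of all genes, and 0 members showed the opposite split. Signs that differed between the arrays, in either order, were about as frequent among the members, at 52.6%, as among all genes, at 58.5%. These shares describe genes measured together on the same 2 arrays and were not tested.

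**Figure D1:**
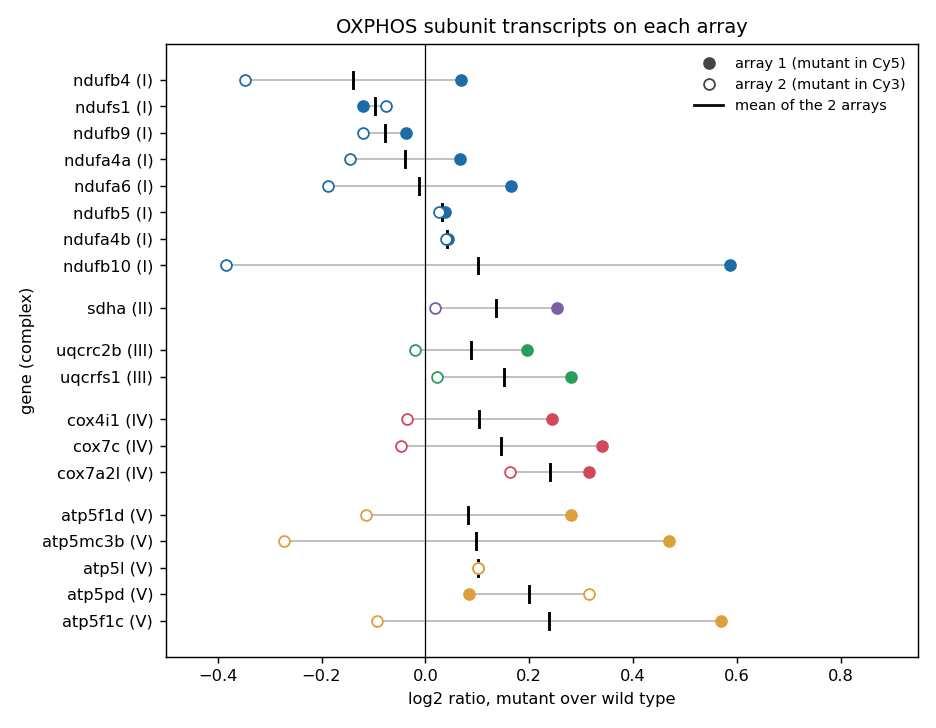
Log2 ratio of mutant over wild type (horizontal axis) for each of the 19 genes (vertical axis, grouped and coloured by complex); filled points are array 1, open points array 2 and black ticks the mean of both. For 10 genes the filled point lies above 0 and the open point below it, and the means lie between -0.14 and 0.24.

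The complex I symbols stood for accessory subunits of the membrane and peripheral arms, a core subunit of the peripheral arm, and ndufa4a and ndufa4b, whose mammalian counterpart is placed in complex IV. ndufb10, an accessory membrane-arm subunit, had normalised signals of 10594 in the mutant and 7050 in wild type on array 1, and of 3265 and 4263 on array 2. Its ratios were 0.59 and -0.38, so its 2 arrays pointed in opposite directions, and the mean was 0.10 ± 0.69 (SD, n = 2; unadjusted p = 0.732 in limma). This was the widest disagreement between arrays among the 19 genes. A second ndufb10 probe repeated it, with 0.57 on array 1 and -0.32 on array 2. The remaining probe, much dimmer, read 0.02 and -0.07. Of its 3 probes, 2 thus shared the same opposed ratios.

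ndufb4, also an accessory subunit of the membrane arm, had the lowest mean of all members. Its signals were 6753 in the mutant and 6439 in wild type on array 1, and 2720 and 3460 on array 2, giving ratios of 0.07 and -0.35. The mean was -0.14 ± 0.29 (SD, n = 2; unadjusted p = 0.380 in limma), with the lower mutant signal on array 2 alone. Its other probe read 0.15 and -0.40.

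ndufs1, an iron-sulfur protein that carries electrons through the peripheral arm, and ndufb9, a membrane-arm subunit, were the 2 members lower in the mutant on both arrays by the probe that stands for the gene. The ndufs1 probe read -0.12 on array 1 and -0.08 on array 2, a mean of -0.10 ± 0.03 (SD, n = 2; unadjusted p = 0.314 in limma). The ndufb9 probe read -0.04 and -0.12, a mean of -0.08 ± 0.06 (SD, n = 2; unadjusted p = 0.418). Both differences were under 1.1-fold.

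ndufb5, a further membrane-arm subunit, read 0.04 and 0.03. The ndufb5 signals were low, at 158 in the mutant and 154 in wild type on array 1, and 103 and 101 on array 2. ndufa6, an accessory subunit of the peripheral arm, read 0.16 and -0.19, with a mean of -0.01 ± 0.25 (SD, n = 2). The paralogue ndufa4a had signals of 8822 in the mutant and 8418 in wild type on array 1, and of 3928 and 4343 on array 2, with ratios of 0.07 and -0.14. The brighter ndufa4b probe read 0.04 on each array. Neither paralogue separated the genotypes on these probes.

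The dimmer ndufa4b probe was the only member probe of the 31 with an unadjusted p under 0.05. Its signals were 226 in the mutant and 180 in wild type on array 1, and 291 and 241 on array 2. The ratios of 0.33 and 0.27 gave a mean of 0.30 ± 0.04 (SD, n = 2; unadjusted p = 0.0285, adjusted p = 1.00 in limma). The 2 ndufa4b probes therefore differed by 0.26, the widest gap between probes of 1 member. Because the brighter probe stands for the gene, 0 of the 19 members counted at an unadjusted p under 0.05 and higher, beside 1.96% of all genes.

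Complex II was represented by sdha alone, the flavoprotein that oxidises succinate. Its brightest probe gave signals of 4668 in the mutant and 3917 in wild type on array 1, and of 2159 and 2131 on array 2. The ratios of 0.25 and 0.02 gave a mean of 0.14 ± 0.17 (SD, n = 2; unadjusted p = 0.268 in limma). The mutant signal was the higher on array 1 and nearly equal to wild type on array 2. The means of its 4 probes lay between 0.07 and 0.20, and the array on which a probe was high was not the same for all of them.

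Complex III was represented by uqcrc2b, a core protein, and uqcrfs1, the Rieske iron-sulfur protein that passes electrons towards cytochrome c1. The brighter uqcrfs1 probe gave 13964 in the mutant and 11499 in wild type on array 1, and 5131 and 5049 on array 2, a mean ratio of 0.15 ± 0.18 (SD, n = 2; unadjusted p = 0.241 in limma). Its other probe read 0.25 and 0.12. uqcrc2b read 0.20 and -0.02, a mean of 0.09 ± 0.15 (SD, n = 2). Both genes were higher in the mutant on array 1 and within 0.03 of equality on array 2 by the probe that stands for the gene.

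Complex IV was represented by cox4i1, the broadly expressed isoform of a regulatory subunit, cox7c, a small structural subunit, and cox7a2l, which in mammals joins complexes III and IV in supercomplexes. cox7a2l had the highest mean of all 19 members. Its brighter probe gave signals of 4716 in the mutant and 3791 in wild type on array 1, and of 2391 and 2134 on array 2. The ratios of 0.31 and 0.16 were both above 0, with a mean of 0.24 ± 0.11 (SD, n = 2; 1.18-fold; unadjusted p = 0.0686, adjusted p = 1.00 in limma). Its other probe read 0.10 and 0.34, so that both probes were higher in the mutant on both arrays but differed in which array showed the larger ratio.

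cox4i1 gave 19578 in the mutant and 16541 in wild type on array 1, and 8965 and 9186 on array 2, ratios of 0.24 and -0.04. Its other probe read 0.19 and 0.22, a mean of 0.20 ± 0.02 (SD, n = 2; unadjusted p = 0.0783 in limma). The sign on array 2 thus depended on the probe. cox7c read 0.34 and -0.05, a mean of 0.15 ± 0.27 (SD, n = 2), with the mutant signal higher on array 1 only.

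Complex V, the ATP synthase, was represented by 5 subunits. In the central stalk, which turns within the catalytic head, atp5f1c (the gamma subunit) gave 13530 in the mutant and 9111 in wild type on array 1, and 5010 and 5346 on array 2. Its ratios of 0.57 and -0.09 had a mean of 0.24 ± 0.47 (SD, n = 2; 1.18-fold; unadjusted p = 0.30 in limma), the second highest of the members and resting on array 1. atp5f1d, the delta subunit of the same stalk, read 0.28 and -0.12, and its dimmer probe -0.01 and -0.03.

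atp5mc3b, which encodes the proton-carrying c subunit of the membrane ring, gave 26533 in the mutant and 19166 in wild type on array 1, and 7829 and 9455 on array 2. Its ratios of 0.47 and -0.27 opposed each other, with a mean of 0.10 ± 0.52 (SD, n = 2; unadjusted p = 0.674 in limma). Outside the rotor, atp5pd, a subunit of the peripheral stalk, read 0.08 and 0.32, a mean of 0.20 ± 0.16 (SD, n = 2; unadjusted p = 0.136 in limma). atp5l, a small membrane subunit, read 0.10 on each array, the closest repeat among the members, at 1.07-fold. Its dimmer probe read 0.07 and -0.03. By the probe that stands for the gene, the mutant signal was the higher on both arrays in atp5pd and atp5l, unlike in the central stalk and ring subunits.

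By complex, the medians of the genes' means were -0.03 for the 8 genes of complex I, 0.12 for the 2 of complex III, 0.15 for the 3 of complex IV and 0.10 for the 5 of complex V. In complexes II to V together, 11 of 11 means lay above 0, from 0.08 to 0.24, while in complex I 3 of 8 did, beside 8318 of all 16222 genes and 949 of the 1623 in the brightest 10%. The median was lower on array 2 than on array 1 in every complex, and it passed below 0 in complexes I, IV and V but not in III: the array 1 medians were 0.06, 0.24, 0.31 and 0.28 for complexes I, III, IV and V, and the array 2 medians were -0.13, 0.00, -0.04 and -0.09. Among the 19 members, complex I thus had the lowest median on both arrays. The complexes also differed in brightness, with a median log2 intensity of 10.70 in complex I and 12.97 in complexes II to V. The difference between complexes, and the part of brightness in it, was not tested. With ndufa4a and ndufa4b moved to complex IV, the median of complex I was -0.04 over 6 genes and that of complex IV was 0.10 over 5.

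**Figure D2:**
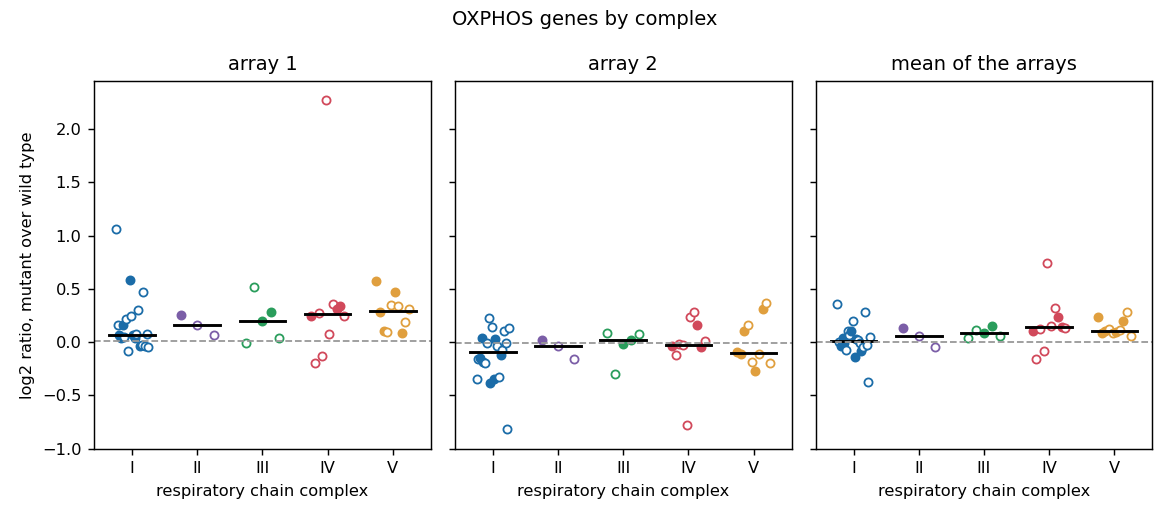
Log2 ratio of mutant over wild type (vertical axis) by complex (horizontal axis) on array 1, on array 2 and as their mean. Filled points are members and open points genes drawn by a probe named through the reference gene table. The member ndufs1 is drawn open, by its brighter added probe. Black bars are the median of all points and the dashed line the median of all genes tested. The bars of complexes I, II, IV and V lie above 0 on array 1 and below 0 on array 2. In the mean panel all points of complexes III and V lie above 0.

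The spread between the 2 arrays limited what they could show. It includes any effect of the dyes, since the fit held no dye term. The SD between the arrays had a median of 0.17 over the 19 genes and reached 0.69, and it was smaller than the mean in size for 7 of them. The 95% intervals from limma reached 0.24 to 0.80 to either side of the mean, with a median of 0.31. All 19 intervals included 0. All 19 also lay inside 2-fold in both directions, with a lowest bound of -0.70 and a highest of 0.91, both for ndufb10. These intervals borrow their spread from all probes, since each probe alone leaves 1 degree of freedom. In whole embryos, fewer cells of a type and less RNA per cell cannot be told apart.

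The difference between the arrays coincided with the exchange of dyes. On array 1, 17 of 19 members were above 0 and on array 2 7 were. The ratio was the larger on array 1 for 17 of 19, beside 54.3% of all genes. Expressed as red over green, whichever genotype was red, the members' median over both arrays was 0.12, beside 0.01 over all genes, and it was 0.20 for complex V. The members were also bright: 18 of 19 lay above the median intensity of all genes and 14 in the brightest 10%. Of those 14, 10 were higher on array 1 and lower on array 2, which is 71.4%, beside 29.5% of the 1623 genes in the brightest 10%. Of the 5 dimmer members, 3 were higher and 2 lower on both arrays. Across the 19 genes, the red over green value and intensity had a Pearson correlation of 0.61 and a Spearman correlation of 0.63, on shared arrays. Dye, array and extract cannot be told apart in this design.

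**Figure D3:**
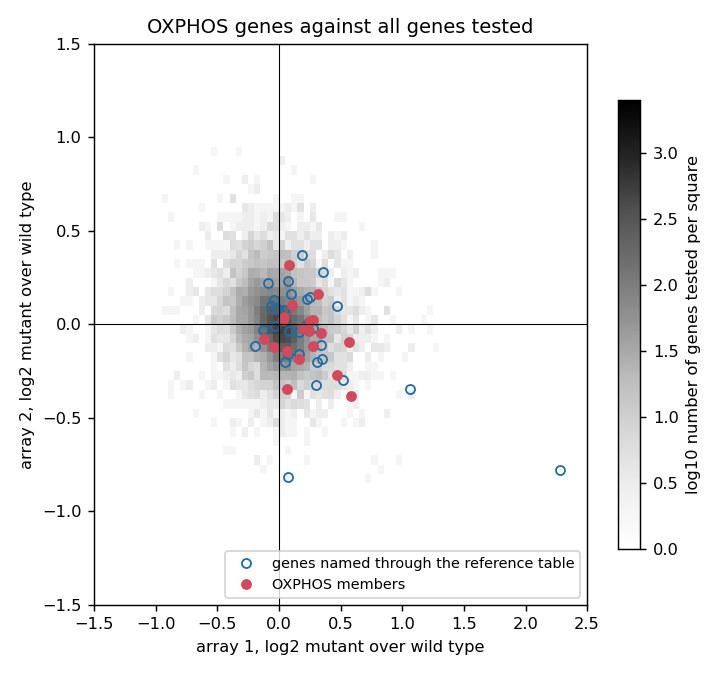
Log2 ratio of mutant over wild type on array 1 (horizontal axis) against array 2 (vertical axis); grey squares show the number of all genes tested on a log10 scale, red points the 19 members and open blue points the genes added through the reference gene table. Of the red points, 10 lie at lower right, where the mutant is higher on array 1 and lower on array 2, and 7 at upper right.

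Many subunit genes are listed on this array under an expressed sequence tag or clone name and so fell outside the naming rule. Through accessions and synonyms in the RefSeq gene table, 64 more probes of 34 genes carried a symbol of the same kind. This addition was chosen after the data were seen. Of these probes, 55 were tested, 7 had an outlier flag and 2 were dim. The wider set then held 50 tested genes, of which 2, ndufaf8 and sdhaf3, are assembly factors and not subunits. The wider set had a median of 0.09, an array 1 median of 0.17 and an array 2 median of -0.03. In it 16 genes, 32%, were higher on both arrays, beside 21.3% of all genes, and 5, 10%, were lower on both, beside 20.2%. Of the 28 genes of complexes II to V, 25 had a mean above 0, and of the 20 of complex I, 11 did, beside 51.3% of all genes. Among the complexes of the wider set, complex I had the lowest median on array 1, at 0.07. On array 2 complex V had the lowest, at -0.10, beside -0.09 for complex I. The wider set includes the 19 members, so these values are not separate from theirs. The 31 genes that it added had a median of 0.07, with 0.16 on array 1 and -0.02 on array 2. Of these 31, 9 (29.0%) were higher and 3 (9.7%) lower on both arrays. The added genes therefore had the same difference in sign between array medians as the 19 members.

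cox7a2a, a subunit of complex IV, was the only gene of the wider set at an unadjusted p under 0.05, 1 of 50 tested. Of all genes, 1.96% were higher at that threshold, so the count was near the background. The cox7a2a signals were 9126 in the mutant and 7128 in wild type on array 1, and 4448 and 3665 on array 2. The ratios of 0.36 and 0.28 gave a mean of 0.32 ± 0.05 (SD, n = 2; 1.25-fold; unadjusted p = 0.0257, adjusted p = 1.00 in limma). atp5pf, a subunit of the peripheral stalk of complex V, read 0.19 and 0.37, a mean of 0.28 ± 0.13 (SD, n = 2; unadjusted p = 0.0524 in limma). Both genes were higher in the mutant on both arrays, and neither passed the adjusted threshold.

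The widest split belonged to cox6b1, a complex IV subunit on the face towards the intermembrane space. Its brightest probe gave 1394 in the mutant and 288 in wild type on array 1, but 805 and 1383 on array 2. The ratios were 2.28 and -0.78, and the red channel was the brighter on both arrays. Another 2 probes of the gene repeated this with 2.19 and -0.65 and with 1.95 and -0.61, whereas the fourth, close to the lowest signals, read 0.15 and -0.06. The mean of the brightest probe was 0.75 ± 2.16 (SD, n = 2; unadjusted p = 0.422 in limma), so that no direction can be given for cox6b1. Its isoform cox6b2 read 0.08 and 0.23.

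In complex I, ndufa1, a small accessory subunit, read 1.07 and -0.34 by its brighter probe and 1.26 and -0.26 by the other. ndufv1, the flavoprotein that oxidises NADH, read 0.07 and -0.82, and 0.39 and -0.94 by its second probe. In each gene both probes thus had ratios that differed between arrays. Of the ndufs1 probes added here, the brightest read -0.02 and -0.07, while the other tested one was higher on both arrays at 0.03 and 0.13, so that the probes of ndufs1 differed in direction. ndufs6, a peripheral-arm subunit, was higher on both arrays at 0.47 and 0.10, a mean of 0.29 ± 0.26 (SD, n = 2; unadjusted p = 0.101 in limma).

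Other wider-set genes gave small ratios. The 4 probes of uqcrq, a small complex III subunit, had means between 0.04 and 0.06. sdhc and sdhda, the membrane anchors of complex II, had means of 0.06 and -0.04, and cyc1, cytochrome c1 of complex III, had 0.04. Among tissue isoforms of complex IV, cox4i2 had a mean of -0.16 ± 0.05 (SD, n = 2; unadjusted p = 0.151 in limma) beside 0.10 for cox4i1, and cox6a2 had -0.08, while the cox6a1 probe had an outlier flag and was not tested. Signals of cox4i2 were low, at 165 in the mutant and 189 in wild type on array 1, and 89 and 97 on array 2. Those of cox6a2 were 197 and 215, and 176 and 179, and cox4i1 was far brighter than both. By the probe that stands for the gene, cox4i2 and cox6a2 were the only tested complex IV genes lower on both arrays, while the other 2 cox4i2 probes were higher on array 1 and lower on array 2. The paralogues uqcrc2a and uqcrc2b had means of 0.11 and 0.09, and atp5mc3a and atp5mc3b had 0.08 and 0.10. Cross-hybridisation between paralogues was not tested.

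**Figure D4:**
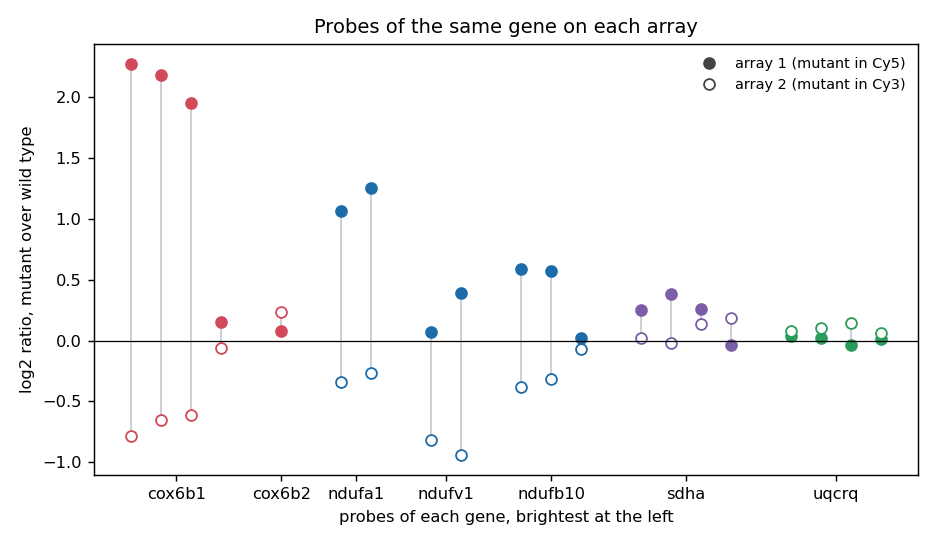
Log2 ratio of mutant over wild type (vertical axis) for every tested probe of 7 genes (horizontal axis, brightest probe of each gene at the left, coloured by complex); filled points are array 1, open points array 2. The first 3 cox6b1 probes lie near 2 on array 1 and between -0.61 and -0.78 on array 2, while the 4 uqcrq probes stay near 0 on both.

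Other genes of mitochondrial and energy metabolism were taken from lists of the pathway and described beside the same background. Of 50 further assembly factors of the respiratory complexes, 13 were tested, with a median of 0.03. On both arrays 5 (38.5%) were higher and 4 (30.8%) lower, beside 21.3% and 20.2% of all genes. The highest was higd1a, a small inner-membrane protein linked to hypoxia in mammals, at 0.37 and 1.01 (mean 0.69 ± 0.46, SD, n = 2; unadjusted p = 0.0282 in limma). The lowest was cox20, which in yeast and human helps to assemble complex IV, at -0.31 and -0.68 (mean -0.49 ± 0.26, SD, n = 2; unadjusted p = 0.0233). Both kept their direction on both arrays, with an adjusted p of 1.00.

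Of the electron and metabolite carriers, 24 of 40 were tested, with a median of 0.07. On both arrays 10 (41.7%) were higher and 5 (20.8%) lower, beside 21.3% and 20.2% of all genes. ckmt1, a mitochondrial creatine kinase, was the highest at 0.83 and -0.14, and dhodh, a pyrimidine synthesis enzyme that feeds electrons to the chain, the lowest at -0.18 and -0.20. In the tricarboxylic acid cycle and pyruvate dehydrogenase list, 21 of 36 were tested, with a median of 0.01. In this list 3 (14.3%) were higher and 3 (14.3%) lower on both arrays. Its highest gene was mdh1ab, a malate dehydrogenase, at 1.33 and -0.22, and its lowest dldh, the dihydrolipoamide dehydrogenase of the pyruvate dehydrogenase complex, at -0.60 and -0.27 (unadjusted p = 0.0296 in limma). The median of this list was 0.15 on array 1 and -0.11 on array 2, a split in the same direction as that of the subunits.

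Glycolysis, with 23 of 35 genes tested, had a median of 0.14, with 0.25 on array 1 and -0.04 on array 2. In it 7 genes were higher and 3 lower on both arrays, beside 21.3% and 20.2% of all genes, and 3 of 23 had an unadjusted p under 0.05 and were higher, beside 1.96%. aldocb, an aldolase, was the highest at 0.85 and 0.29 (unadjusted p = 0.0360 in limma), and eno1b, an enolase, the lowest at -0.12 and -0.25. The regulators of mitochondrial gene expression, 11 of 38, had a median of 0.05 and ran from yy1b at -0.12 to slirp at 0.31. Median ratios of glycolysis and of the oxidative subunits thus lay on the same side of 0, and the difference between the lists was not tested.

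The modules most like the subunits in kind are described beside them. The 28 mitochondrial ribosomal protein genes had a median of 0.07, with 0.14 on array 1 and 0.02 on array 2. On both arrays 10 (35.7%) were higher and 3 (10.7%) lower, shares near the 36.8% and 10.5% of the subunits. Among all genes the shares were 21.3% and 20.2%. The extremes of the mitochondrial ribosomal proteins were mrpl43 at 2.56 and -0.62 and mrpl40 at -0.14 and -0.44. The 42 cytosolic ribosomal protein genes with an unsaturated probe had a median of -0.05, with -0.11 on array 1 and 0.02 on array 2. In that set 4 (9.5%) were higher and 11 (26.2%) lower on both arrays. The means ran from rpl10a at -0.50 and -0.67 (unadjusted p = 0.00535 in limma) to rps7 at 0.35 and 0.08. A further 26 genes had only saturated probes. Expressed as red over green, the median was -0.08 for the cytosolic ribosomal proteins and 0.03 for the mitochondrial ones, beside 0.12 for the subunits. In the same terms it was 0.11 for the tricarboxylic acid cycle list and 0.07 for glycolysis. The regulators had 0.04, the carriers 0.03 and the further assembly factors 0.02.

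**Figure D5:**
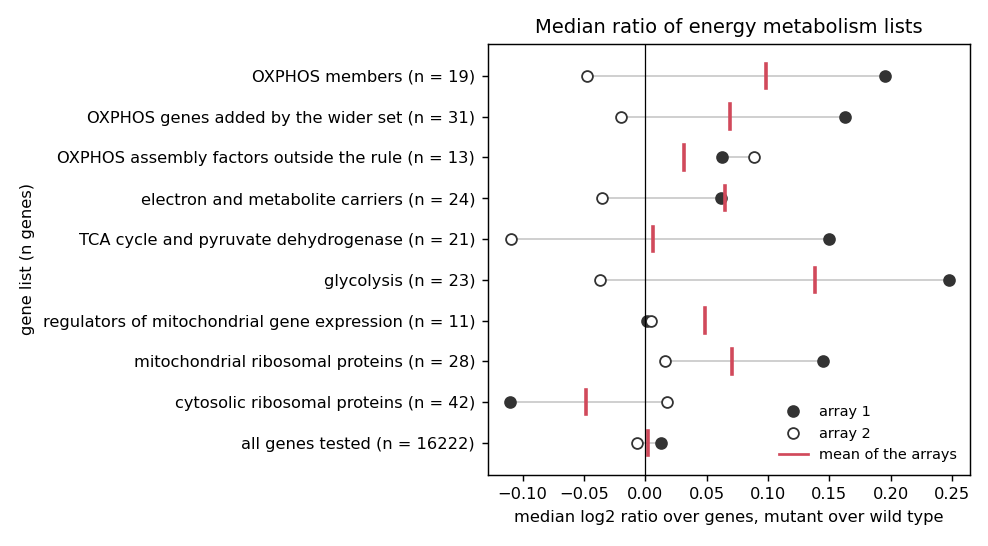
Median log2 ratio of mutant over wild type (horizontal axis) over the genes of each list (vertical axis, number of genes in parentheses) on array 1 (filled), on array 2 (open) and of the genes' means (red tick). The subunits sit at 0.20 on array 1 and -0.05 on array 2, and all genes tested lie near 0 on both.

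Marker genes of cell types in the whole embryo were read beside the subunits. Of 29 markers, 26 were on the array and all 26 were well above background. The 8 skeletal muscle markers, a tissue rich in mitochondria, had a median of 0.43 over their means, with 0.27 on array 1 and 0.31 on array 2, and ran from tnni2a.4 at -0.32 to desma at 0.53. The 6 neural markers had a median of -0.25, with -0.31 and -0.19 on the arrays, and ran from fabp7a at -0.82 to elavl3 at 0.08. Of these 6, 4 (66.7%) were lower and 2 (33.3%) higher on both arrays. Of the 8 muscle markers, 5 (62.5%) were higher and 1 (12.5%) lower on both arrays, and 2 were split. Among all genes, 21.3% were higher and 20.2% lower on both. The medians were 0.23 for 4 blood markers, 0.20 for 4 of notochord and hatching gland and 0.17 for 4 of yolk syncytial layer and endoderm. On arrays 1 and 2 the blood medians were 0.18 and 0.38, and those of notochord and hatching gland 0.03 and 0.27. Those of yolk syncytial layer and endoderm were 0.28 and 0.05. The medians of all 5 marker lists thus kept their sign on both arrays, while that of the subunits did not. Their part in the subunit ratios was not tested.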

How the data were processed

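RNA of 22 hpf embryos was measured on 2 arrays read in 2 colours. Per the file headers, the authors ran Agilent Feature Extraction, which the submitters' processing notes also name, to obtain the mean intensity of each spot, its local background and a processed intensity that is background-subtracted and dye-normalised by LOWESS within the array. Per the file headers, the same software computed the deposited log10 ratio of red over green and its p-value from an error model of single arrays. Red is Cy5 and green Cy3 per the labels. The deposited value table repeats the log10 ratios.

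From the intensities, background was corrected with normexp (offset 50) and each array normalised by loess (span 0.3) in limma 3.58.1 under R 4.3.3. Probes with an outlier flag on either array (749) and probes not well above background in the same genotype on both arrays (1462) were left out, leaving 19284. limma's moderated test, 2-sided, was applied to the 2 turned log2 ratios, with 1 residual degree of freedom per probe and 3.49 after pooling, and adjusted by Benjamini-Hochberg over all probes. The fit was also run on data simulated from its own fitted spread, with known shifts added. Those data held no dye effect, so the run checked the calculation and not the error of these arrays. The number of arrays limits the precision.

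Each gene was represented by its brightest unsaturated probe. A RefSeq table of assembly GRCz12tu gave symbols to 7323 of 21495 gene probes through their accession, to 598 through a current symbol and to 2352 through a synonym, and 11222 kept the name in the files. No coordinates were used. Summaries were made in Python 3.11.15 with pandas 2.3.3. Named were the 3 highest and 3 lowest genes and the 2 brightest of complexes I, III, IV and V, all of complex II, members past an unadjusted p of 0.05, 1.5-fold on both arrays, saturated, with probes over 0.5 apart or paired as isoforms, and the extremes of each list. Members, lists and rules were chosen with earlier results of these data known. Probe, promoter and protein sequences were not used here.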

Additional observations from a re-analysis of the deposited data

How the results depend on the processing

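The median of the 19 genes stayed between 0.08 and 0.13 without the offset, from the processed signals and from the deposited value table. It also did so with all probes of a gene averaged and with median centring. The same held for members above the median intensity, an alternative chosen after seeing the data. Leaving out the filter on dim probes, keeping outlier spots and allowing saturated probes could not change this median. Of the 31 member probes, 0 were dim, flagged as outliers or saturated. The processed signals and the deposited value table come from the same software and are not independent of each other. Median centring in place of loess moved 3 counts: 38 probes were called in place of 0, 1 member in place of 7 was higher on both arrays, and 1 in place of 2 was lower on both. With it 16 members were higher on array 1 and lower on array 2, with array medians of 0.48 and -0.24, and ndufa6 reversed from -0.01 to 0.020. Over all genes, the share higher on array 1 and lower on array 2 also moved, from 32.2% to 40.8%. The share of all genes higher on both arrays moved from 21.3% to 14.2%. The scanner software's error model called 133 probes, at its own threshold of 0.01 on single arrays. The median of complex I ranged from -0.04 to 0.01 and so changed sign, while under the same alternatives those of complexes II to V stayed above 0. Without array 1 they were 0.02, 0.00, -0.04 and -0.09 for II, III, IV and V, so that IV and V lay below 0. With 1 array left out, the members' median ranged from -0.05 (without array 1) to 0.20 (without array 2), the number of members higher from 7 to 17 and lower from 2 to 12. The median of all genes was 0.01 on array 1 and -0.01 on array 2. The cause of these changes was not tested. No paired analysis was possible because the data are 1 group of 2 ratios. All 31 probes were well above background, so that this filter removed no member, and the number of arrays limited every value. Without the offset, the mean of ndufb5, the only member not above the median intensity of all genes, moved from 0.03 to 0.06.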

Other observations

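Subunits encoded in mitochondrial DNA lie outside the naming rule, and 3 probes for them were picked after their values were seen. The mtatp6 probe, for a membrane subunit of ATP synthase, read 0.24 on array 1 and -0.60 on array 2 (mean -0.18; unadjusted p = 0.493 in limma). A probe described as chain 4 of NADH-ubiquinone oxidoreductase, a complex I core subunit, read -0.13 and -0.77 (mean -0.45; unadjusted p = 0.0857). A probe described as cytochrome c oxidase polypeptide I, the catalytic subunit of complex IV, read 0.09 and 0.07 (mean 0.08; unadjusted p = 0.386). The adjusted p of each was 1.00, so that none of the 3 passed the adjusted threshold. Their means lay on both sides of 0.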
